A study of Homo sapiens with 4 samples.

Results

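The proteasome genes described here were all spots of a human whole genome array, control spots apart, whose gene name started with PSM, a letter from A to G and a number, or was POMP. The rule gave 50 gene names, read by 66 of the 34127 probes and 84 of the 43118 spots. PSMC3IP, one of these names, encodes a cofactor of meiotic recombination and no part of the proteasome, and its values are given apart. The other 49 genes comprised the immunoproteasome set of 5 genes (PSMB8, PSMB9, PSMB10, PSME1 and PSME2) and 44 others. Of the 50 names, 49 gave a signal well above background on every array of 1 or both groups and were tested among 22022 genes. The exception was PSMA8, an alpha subunit known from testis, which was not well above background on any array, with log2 intensities between 6.04 and 6.15.

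In the comparison, 2 samples were control MCF10A.B2 cells and 2 were cells of this line with a shRNA against PAK1 (PAK1 shRNA). PAK1 is a kinase that relays signals to the cytoskeleton and to growth pathways. MCF10A.B2 is a line of human breast epithelium into which a chimeric form of ErbB2 (Her2) was brought, a receptor switched on by the crosslinker AP1510. Cells of both groups were starved of serum for 3 h and given AP1510 for 15 min before RNA was extracted. The study describes the shRNA as tetracycline inducible, and the labels name neither the inducer nor a clone. They call the first group control or Pak1 wild type, and the study's methods give it as the MCF10A.B2 line without mention of the shRNA. The sources disagree on the samples of a group: the series description speaks of cells from 2 tumors a group, whereas the labels and the methods name the cell line. The labels and methods mention no separate cultures, so p-values measure the spread between these samples, which may be technical.

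The proteasome is the chamber in which cells degrade proteins tagged with ubiquitin. Its 20S core is built of outer alpha rings, which gate the channel, and inner beta rings, in which the catalytic subunits PSMB5, PSMB6 and PSMB7 cut the chain, while the 19S cap binds, unfolds and feeds the substrate. Interferons are known to induce the alternative catalytic subunits PSMB8, PSMB9 and PSMB10, which take the places of PSMB5, PSMB6 and PSMB7 in new cores, and the 11S activator subunits PSME1 and PSME2. The resulting immunoproteasome yields peptides suited to MHC class I molecules, the surface proteins that show peptides to T cells.

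What an array reads is the probe, so the probes of both inducible and constitutive subunits at the PSMB8/PSMB5 and PSMB9/PSMB6 positions are shown as the scanner files give them, in hg19 coordinates. The PSMB8 probe spans 468 genomic bases and the PSMB6 probe 186 bases, more than the 60 bases of the probe itself, so both bridge an intron. The PSMB9 and PSMB5 probes are contiguous in the genome.
PSMB8 probe, chr6:32810023-32810490, minus strand: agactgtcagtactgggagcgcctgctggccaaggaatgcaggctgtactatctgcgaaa
PSMB9 probe, chr6:32823918-32823977, plus strand: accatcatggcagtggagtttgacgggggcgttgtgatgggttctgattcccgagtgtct
PSMB5 probe, chr14:23495485-23495544, minus strand: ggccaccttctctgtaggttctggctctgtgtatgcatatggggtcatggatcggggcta
PSMB6 probe, chr17:4701404-4701589, plus strand: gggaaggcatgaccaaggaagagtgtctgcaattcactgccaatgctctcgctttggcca

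The promoters of the immunoproteasome set are shown because all 5 genes were higher in PAK1 shRNA cells. The letters are those of RefSeq on GRCh38.p14, from 150 bases before to 30 bases after the transcript start, and capitals mark the core of the interferon-stimulated response element (ISRE), searched as GAAANNGAAA on both strands.
PSMB8 promoter, chr6:32844018-32844197, minus strand: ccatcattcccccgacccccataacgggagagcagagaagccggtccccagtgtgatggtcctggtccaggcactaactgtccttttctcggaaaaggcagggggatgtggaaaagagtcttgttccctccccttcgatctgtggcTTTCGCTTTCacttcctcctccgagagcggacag
PSMB9 promoter, chr6:32854042-32854221, plus strand: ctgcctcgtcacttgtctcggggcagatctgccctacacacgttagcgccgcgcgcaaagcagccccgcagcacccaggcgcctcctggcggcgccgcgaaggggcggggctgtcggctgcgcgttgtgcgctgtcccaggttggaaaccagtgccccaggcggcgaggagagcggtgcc
PSMB10 promoter, chr16:67936821-67937000, minus strand: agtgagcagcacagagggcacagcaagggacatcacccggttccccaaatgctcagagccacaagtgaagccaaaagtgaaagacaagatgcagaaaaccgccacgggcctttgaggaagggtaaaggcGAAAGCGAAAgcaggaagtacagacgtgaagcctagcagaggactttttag
PSME1 promoter, chr14:24136044-24136223, plus strand: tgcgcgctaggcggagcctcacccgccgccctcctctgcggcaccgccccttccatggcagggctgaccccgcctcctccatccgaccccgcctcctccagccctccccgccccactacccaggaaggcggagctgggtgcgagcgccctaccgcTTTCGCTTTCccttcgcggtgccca
PSME2 promoter, chr14:24146581-24146760, minus strand: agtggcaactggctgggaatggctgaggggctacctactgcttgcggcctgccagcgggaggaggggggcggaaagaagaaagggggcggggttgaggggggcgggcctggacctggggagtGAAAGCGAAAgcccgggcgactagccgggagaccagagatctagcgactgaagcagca

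PSMB8, PSMB10, PSME1 and PSME2 carried this core close to the transcript start, its first base at positions -4, -21, 5 and -28 from the start. PSMB8 has 2 starts in the table, and the one shown is that with a match. No match lay in the PSMB9 window. PSMB9 shares its upstream region with TAP1, the peptide transporter gene that runs the other way, with its nearer start 488 bases away, and the TAP1 window held a pair of overlapping ISRE cores, the nearer of them 354 bases before the PSMB9 start. Over windows of 300 bases, 4 of the 5 genes of the set held the core, against 3 of the 38 other proteasome genes with a window (PSMA4, PSMB4 and PSMG4). Of these 3, PSMA4 was higher in PAK1 shRNA cells (log2 fold change 0.44), and PSMB4 (-0.35) and PSMG4 (-0.60) were lower. Counted by window, the core lay in 4 of 6 of the set (66.7%), 3 of 46 of the others (6.52%) and 3.57% of all 35116. The GAS core TTCNNNGAA, which reads the same on both strands, was found in PSMB8 alone of the set and in 7 of the 38 other genes. By window the GAS core lay in 16.7% of the set, 15.2% of the others and 7.66% of all. Of the 49 genes, 43 had a promoter entry. The motifs were chosen with the expression values known, and a match describes letters only.

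Within each array between 78.9% and 83.2% of probes were well above background, and replicate arrays correlated at 0.998 across genes. The number of arrays limits the precision. PAK1 itself had log2 intensities of 11.19 and 11.27 in control and 10.44 and 10.52 in PAK1 shRNA cells. The change of -0.75 on the log2 scale (standard error 0.08, limma's Benjamini-Hochberg adjusted p = 0.000179) left 59.5% of the control level. All 8 basal mammary markers listed were well above background in both groups. Of these, 5 fell (KRT5 -1.14, TP63 -1.13, KRT14 -0.95, KRT17 -0.72 and EGFR -0.55) and 2 rose (LAMB3 1.34 and CDH3 0.90). Of the 5 luminal markers tested, KRT19 (-1.02) and GATA3 (-0.49) fell, KRT18 rose (0.48), and ESR1 and KRT8 did not pass. PGR, also listed, was not well above background on any array. Over all genes tested, 31.0% were higher and 31.8% lower. The part of these lineage markers in the proteasome results was not tested.

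The 5 genes of the immunoproteasome set all rose in PAK1 shRNA cells, with a median log2 fold change of 1.45 (range 0.43 to 3.10). Among the 44 other proteasome genes, 43 were tested, of which 8 rose, 29 fell and 6 did not pass, with a median of -0.52. Over all genes tested 62.8% passed, 31.0% as higher and 31.8% as lower, and the median was 0.020. The share of the other proteasome genes that fell was 67.4%. With a threshold of 2-fold added, those higher were 4 of the 5 genes of the set and 1 of the others, PSMF1, and those lower were 4 of the others and none of the set, where 8.85% and 8.95% of all genes tested were higher and lower by this rule. In a bulk RNA sample, more cells that express a gene and more RNA per cell cannot be told apart.

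PSMB9 encodes the inducible subunit beta1i, which replaces PSMB6. Its log2 intensity was 10.57 and 10.77 in control and 13.62 and 13.92 in PAK1 shRNA cells. Both PAK1 shRNA arrays lay about 3 log2 units above both control arrays, far beyond the gap within a group. The log2 fold change of 3.10 (standard error 0.12, adjusted p = 3.15e-06, limma), or 8.57-fold, exceeded that of 99.0% of the genes tested and was the largest of the 48 proteasome genes tested.

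PSMB10, the inducible subunit beta2i that replaces PSMB7, read 14.45 and 14.60 in control and 15.90 and 16.05 in PAK1 shRNA cells. PSMB8, the inducible subunit beta5i that replaces PSMB5, read 12.00 and 12.13 in control and 13.26 and 13.30 in PAK1 shRNA cells. The groups did not overlap for either gene. Their log2 fold changes were 1.45 (standard error 0.09, adjusted p = 2.24e-05) and 1.22 (standard error 0.08, adjusted p = 2.53e-05), or 2.72-fold and 2.32-fold higher.

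PSME2, the beta subunit of the 11S activator (PA28), had values of 16.35 and 16.32 in control and 17.79 and 17.92 in PAK1 shRNA cells. Its rise of 1.52 (standard error 0.08, adjusted p = 1.05e-05) was 2.87-fold. PSME1, the alpha subunit of the same ring, had 11.20 and 11.42 in control and 11.70 and 11.79 in PAK1 shRNA cells. Its groups did not overlap either, but the lowest PAK1 shRNA array stood above the highest control array by little more than the gap within the control group. PSME1 rose by 0.43 (standard error 0.10, adjusted p = 0.00665, limma), the smallest change of the set, and the methods' t-test gave it an adjusted p of 0.108, which did not pass. This is the unpaired test that the study names for its statistics in general, while it names limma for the arrays.

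**Figure D1:**
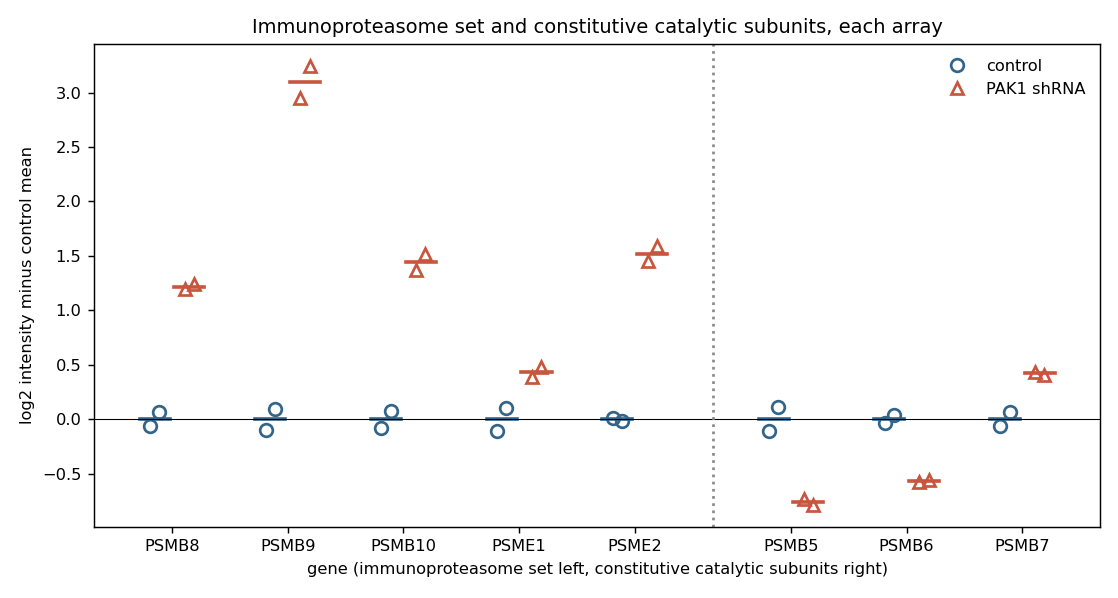
Each array's log2 intensity minus the control mean of that gene (y axis) for the immunoproteasome set and the constitutive catalytic subunits (x axis). Open circles are control arrays, triangles are PAK1 shRNA arrays and lines are group means (n = 2). The 5 genes of the set lie above 0 on both PAK1 shRNA arrays, PSMB9 by 3.10 on average, while PSMB5 and PSMB6 lie below 0 and PSMB7 above.

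The constitutive catalytic subunits did not move together. PSMB5, which carries the chymotrypsin-like site, read 14.65 and 14.87 in control and 14.03 and 13.97 in PAK1 shRNA cells, a log2 fold change of -0.76 (standard error 0.09, adjusted p = 0.000437). PSMB6, with the caspase-like site, read 14.90 and 14.97 in control and 14.35 and 14.37 in PAK1 shRNA cells, a change of -0.57 (standard error 0.07, adjusted p = 0.000557). In both genes the PAK1 shRNA arrays lay below both control arrays. PSMB7, with the trypsin-like site, went the other way, from 14.83 and 14.96 to 15.32 and 15.30. It rose by 0.42 (standard error 0.08, adjusted p = 0.00346, limma), while the methods' t-test gave an adjusted p of 0.0548, which did not pass.

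The balance of each inducible subunit to the one it replaces was followed as the log2 ratio of both probes on an array, set to 0 at the control mean. For PSMB9 over PSMB6 the control arrays had -0.061 and 0.061 and the PAK1 shRNA arrays 3.53 and 3.81, a shift of 3.67 or 12.7-fold. For PSMB8 over PSMB5 the control arrays had 0.043 and -0.043 and the PAK1 shRNA arrays 1.93 and 2.03, a shift of 1.98 or 3.94-fold. For PSMB10 over PSMB7 the control arrays had -0.012 and 0.012 and the PAK1 shRNA arrays 0.94 and 1.11, a shift of 1.03 or 2.04-fold. All 3 ratios were higher on both PAK1 shRNA arrays than on both control arrays. The exact two-sided permutation test gave p = 0.333 for each, which is the smallest that 2 arrays against 2 allow.

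The 4 structural beta subunits PSMB1 to PSMB4 all fell, where 31.8% of all genes tested did. Their log2 fold changes ran from -0.80 (PSMB1, standard error 0.08) to -0.35 (PSMB4, standard error 0.09). The call of PSMB4 was lost under 3 of 16 alternative settings of limma. PSMB11, the catalytic subunit of the thymus, was dim, with values from 6.65 to 6.74 over the 4 arrays and a log2 fold change of 0.050 (standard error 0.07).

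The alpha ring was split. Of its 7 tested members 3 rose (42.9%, against 31.0% of all genes tested), 1 fell (14.3%, against 31.8%) and 3 did not pass. The median was 0.24. PSMA4 read 14.51 and 14.47 in control and 14.86 and 15.01 in PAK1 shRNA cells, a log2 fold change of 0.44 (standard error 0.08, adjusted p = 0.00325). PSMA5 read 14.76 and 14.90 in control and 15.18 and 15.31 in PAK1 shRNA cells, a change of 0.41 (standard error 0.09, adjusted p = 0.00602). PSMA6 read 15.52 and 15.59 in control and 15.89 and 16.00 in PAK1 shRNA cells, a change of 0.39 (standard error 0.08, adjusted p = 0.00512). The groups did not overlap in any of these 3 genes, and the rises were small, from 1.31-fold to 1.36-fold. None of the 3 passed the methods' t-test (adjusted p of 0.0612, 0.0897 and 0.064). PSMA7 fell from 14.54 and 14.67 to 13.41 and 13.43, a log2 fold change of -1.18 (standard error 0.08, adjusted p = 2.82e-05) that left 44.1% of the control level. PSMA1 had 0.0043 (standard error 0.08), PSMA2 had -0.25 (standard error 0.09, adjusted p = 0.0548) and PSMA3 had 0.24 (standard error 0.09, adjusted p = 0.0633), none of which passed. PSMA1 had a dimmer probe, listed under another transcript, that was well above background on every array. It read 1.01 (standard error 0.08) and passed by limma (adjusted p = 3.85e-05, over probes).

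**Figure D2:**
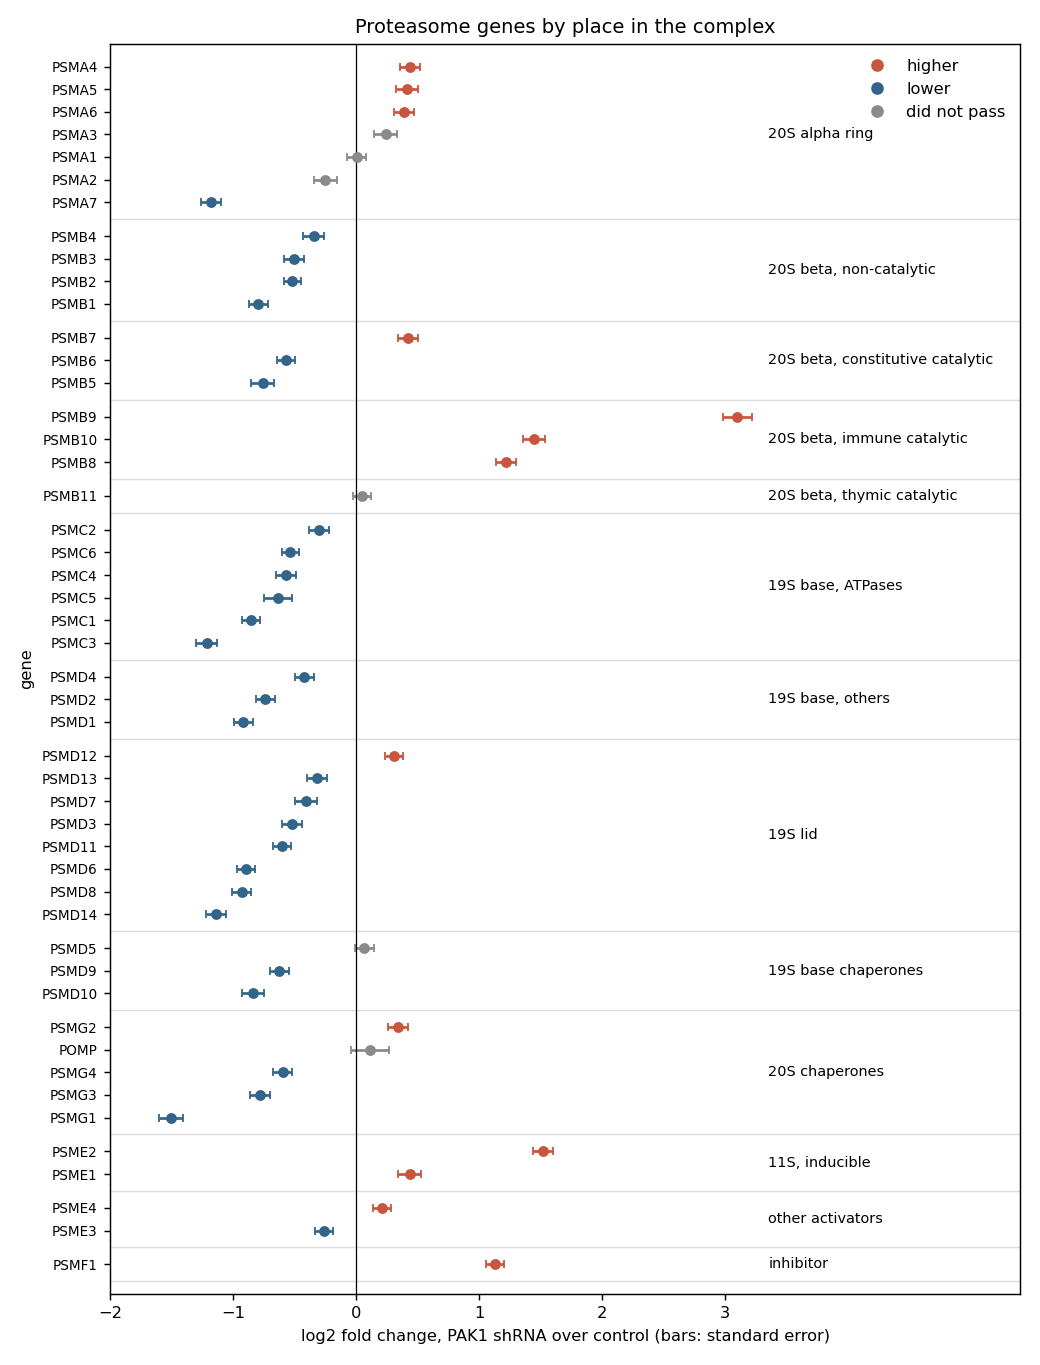
Log2 fold change of PAK1 shRNA over control (x axis; bars are standard errors of the limma fit, n = 2 arrays a group) for the 48 proteasome genes tested (y axis), ordered by their place in the complex and coloured by the call at an adjusted p of 0.05. The inducible catalytic subunits, the inducible 11S subunits and PSMF1 lie to the right. To the left lie 16 of the 17 genes of the 19S cap that the name rule holds.

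The 19S cap fell nearly throughout. Of its 17 genes in the name rule, 16 fell (94.1%, against 31.8% of all genes tested) and 1 rose, with a median log2 fold change of -0.60. Among the 16, the call was lost for PSMC2 under 4, for PSMD13 under 2 and for PSMD7 under 1 of 16 alternative settings of limma. All 6 ATPases of the base (PSMC1 to PSMC6), which unfold and translocate the substrate, fell, with log2 fold changes from -0.30 (PSMC2) to -1.22 (PSMC3). PSMC3 read 12.47 and 12.63 in control and 11.30 and 11.36 in PAK1 shRNA cells, which left 43.0% of the control level (standard error of the log2 fold change 0.09, adjusted p = 3.35e-05). The large scaffold subunits PSMD1 (-0.92) and PSMD2 (-0.74) and the ubiquitin receptor PSMD4 (-0.42) fell as well.

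In the lid, which holds the deubiquitinase that removes the ubiquitin chain, 7 of 8 genes in the name rule fell (87.5%, against 31.8% of all genes tested). PSMD14, that deubiquitinase, read 14.07 and 14.21 in control and 13.03 and 12.97 in PAK1 shRNA cells, a log2 fold change of -1.14 (standard error 0.08, adjusted p = 3.93e-05). PSMD8 read 14.54 and 14.61 in control and 13.69 and 13.60 in PAK1 shRNA cells, a change of -0.93 (standard error 0.08, adjusted p = 6.81e-05). In both genes the arrays of each group lay close together and about 1 log2 unit from those of the other. The other lid genes that fell were PSMD6 (-0.90), PSMD11 (-0.60), PSMD3 (-0.52), PSMD7 (-0.41) and PSMD13 (-0.32). PSMD12 alone rose, by 0.31 (standard error 0.07, adjusted p = 0.00955), and under median centring its adjusted p was 0.057.

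The dedicated assembly chaperones were lower in 5 of 8 cases, where 31.8% of all genes tested were lower. PSMG1, which pairs with PSMG2 to build the alpha ring, had the largest fall of the proteasome genes, from 14.50 and 14.71 to 13.14 and 13.06, a log2 fold change of -1.51 (standard error 0.09, adjusted p = 2.11e-05) or 35.2% of the control level. PSMG2, its partner, rose by 0.34 (standard error 0.08, adjusted p = 0.00898), a call that was lost without PAK1 shRNA replicate 2 (adjusted p = 0.0608) and by the methods' t-test (adjusted p = 0.0725). PSMG3 (-0.78) and PSMG4 (-0.60), which form another pair, both fell. POMP, which completes beta ring assembly, ranged from 8.96 to 9.42 in control and from 9.21 to 9.39 in PAK1 shRNA cells, with overlapping groups (log2 fold change 0.11, standard error 0.15). Of the chaperones of the 19S base, PSMD9 (-0.63) and PSMD10 (-0.84) fell, and PSMD5 had 0.066 (standard error 0.08).

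The regulators outside the 11S PSME1/PSME2 ring differed among themselves. PSMF1 (PI31), known as an inhibitor of the core in vitro and an adaptor for its transport, read 11.89 and 11.95 in control and 13.03 and 13.06 in PAK1 shRNA cells. Its rise of 1.13 (standard error 0.07, adjusted p = 2.39e-05) was the largest rise outside the immunoproteasome set, and the other probes of PSMF1 rose by 0.68 to 1.00. PSME3, the nuclear PA28 gamma activator, fell slightly (-0.26, standard error 0.07, adjusted p = 0.0176), and this call was lost under 5 of 16 alternative settings of limma. PSME4 (PA200), which binds the core in the nucleus, changed by 0.21 (standard error 0.07, adjusted p = 0.0401), but its second probe read -0.19, and without any single array it did not pass (adjusted p from 0.0705 to 0.136).

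PSMC3IP, the recombination cofactor caught by the name rule, read 11.35 and 11.33 in control and 9.60 and 9.68 in PAK1 shRNA cells. It fell by 1.69 on the log2 scale (standard error 0.07, adjusted p = 5.01e-06).

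Probes of the same gene mostly moved alike. Of the 12 genes with at least 2 probes past the filter, 10 had all probes on one side of 0 and 2, PSMD5 and PSME4, had probes on both sides. The largest gap was in PSMA1, with 0.0043 for the brighter probe and 1.01 for the other. PSMD9 and PSMG4 fell by less on their second probes, at -0.20 and -0.16. Every gene of the immunoproteasome set and PSMB5, PSMB6 and PSMB7 rested on 1 probe each, so no second probe bears on their values.

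**Figure D3:**
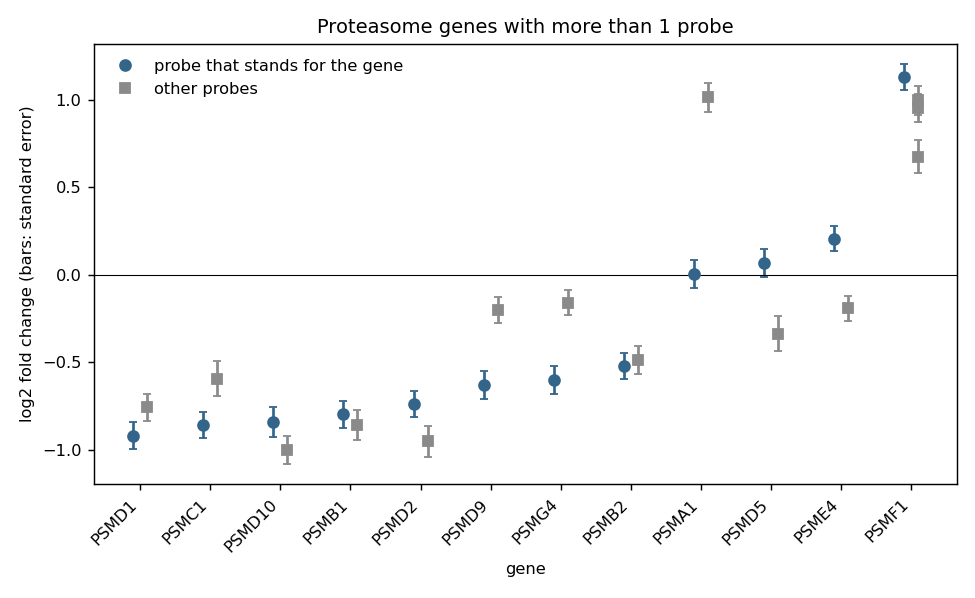
Log2 fold change (y axis; bars are standard errors, n = 2 arrays a group) of each probe of the 12 proteasome genes with at least 2 probes past the filter (x axis). Circles are the probes that stand for the gene and squares the others; PSMF1 is above 0 on all 4 probes, and PSMD5 and PSME4 have probes on both sides of 0.

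Set side by side, the means of the immunoproteasome set and of the other proteasome genes separated on both PAK1 shRNA arrays. The single genes overlapped, since PSME1 (0.43) rose about as much as PSMA4 (0.44) and less than PSMF1 (1.13). For the set, the mean deviation from the control mean was -0.066 and 0.066 in control and 1.47 and 1.61 in PAK1 shRNA cells. For the 43 other genes the same mean was -0.047 and 0.047 in control and -0.39 and -0.37 in PAK1 shRNA cells. The gap between both means was thus 1.86 and 1.99 in PAK1 shRNA cells, against -0.020 and 0.020 in control. The mean log2 fold changes differed by 1.93, and by 1.86 to 1.99 over 15 alternative settings. Both PAK1 shRNA arrays lay above both control arrays in 5 of 5 genes of the set, and in the others they lay above in 10, below in 30 and overlapped in 3 (of all genes 42.1% lay above, 39.7% below and 81.8% on either side).

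Genes outside the name rule that work with the proteasome were taken from a list of 26 partners, of which 25 were tested. Among them were shuttle factors, deubiquitinases, the ubiquitin genes and the regulators of proteasome transcription. The list also held ADRM1 (-0.80) and SEM1 (-0.94), which are themselves subunits of the 19S cap and were both lower. Of the 25 tested, 3 rose (12.0%, against 31.0% of all genes tested), 14 fell (56.0%, against 31.8%) and 8 did not pass, with a median of -0.25. The largest falls were those of PITHD1 (-1.32, standard error 0.11, adjusted p = 6.38e-05), UBQLN4 (-1.19, standard error 0.08, adjusted p = 3.21e-05), a shuttle factor, and PAAF1 (-1.11, standard error 0.08, adjusted p = 3.03e-05), which binds the 19S ATPases. The 3 that rose were NFE2L1, NPLOC4 and NGLY1. NFE2L1 (NRF1), the factor known to raise proteasome gene transcription when the proteasome is impaired, read 14.84 and 14.60 in control and 15.83 and 15.85 in PAK1 shRNA cells (log2 fold change 1.12, standard error 0.10, adjusted p = 8.84e-05). NGLY1, which deglycosylates it, rose by 0.42 (standard error 0.07), and NPLOC4, a VCP cofactor, by 0.55 (standard error 0.08). NFE2L2, read by 1 probe, was not well above background on any array, which does not show that its RNA was absent.

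All 8 genes reported of the MHC class I peptide supply and its regulators rose, where 31.0% of all genes tested did, with a median log2 fold change of 2.13 and a range from 0.90 to 4.09. NLRC5, the transactivator of MHC class I genes, read 8.41 and 8.47 in control and 12.47 and 12.59 in PAK1 shRNA cells, a rise of 4.09 (standard error 0.08, adjusted p = 3.14e-07). TAP1, the neighbour of PSMB9 on chromosome 6, read 14.33 and 14.21 in control and 18.03 and 18.27 in PAK1 shRNA cells, a rise of 3.88 (standard error 0.10, adjusted p = 8.47e-07). In both genes the PAK1 shRNA arrays lay well above both control arrays. IRF1, an interferon-induced transcription factor, rose by 2.98 (standard error 0.07, adjusted p = 6.58e-07). PSMB8 and PSMB9 lie beside TAP2 and TAP1 in the order of RefSeq genes, and PSME1 and PSME2 lie on both sides of EMC9.

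Since immune cells express the immunoproteasome without induction, markers of other cells were read on the same arrays. Of 9 leukocyte markers 8 were on the array and 7 were tested. CD14, ITGAM, CD2 and CD79A were higher, where 31.0% of all genes tested were. PTPRC, CD3E and MS4A1 did not pass, with log2 fold changes from -0.058 to 0.14, and CD3G was not well above background on any array. CD2, PTPRC, CD3E and MS4A1 were dim, with control means of 7.28, 7.72, 7.04 and 6.99. CD79A had means of 12.77 in control and 13.25 in PAK1 shRNA cells. The summed intensity of the list was 25360 to 27660 in control and 55690 to 59120 in PAK1 shRNA cells, and CD14 rose by 1.32 (standard error 0.08). Most of this gain was CD14, since without it the sum was 7217 to 8662 in control and 10700 to 11020 in PAK1 shRNA cells. Of 7 fibroblast markers 3 were higher and 1 was lower, where 31.0% and 31.8% of all genes tested were. COL1A2, COL3A1 and PDGFRA were not well above background on any array. The summed intensity of the fibroblast list was 3957 to 4712 in control and 7805 to 8006 in PAK1 shRNA cells. Most of this sum was DCN, with mean log2 intensities of 11.86 in control and 12.73 in PAK1 shRNA cells. COL1A1, LUM and PDGFRB were far dimmer in both groups, and PDGFRB was the marker that was lower. The part of these markers in the rise of the immunoproteasome set was not tested.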

How the data were processed

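The 4 samples were labelled with Cy3, each for its own array (Agilent whole genome, 1 dye). The authors deposited spot intensity as Agilent Feature Extraction (version 9.5, per the submitters' processing notes) wrote it, and a table of log2 values used here as an alternative. The study's methods name normexp background correction, quantile normalization and limma. An unpaired test named for the study's statistics in general, called the methods' t-test, was run as an alternative only. Here normexp (offset 50) was fitted without spots whose local background was flagged, since the fit on all spots put the background of the control arrays at -666 and -740 and that of the others at -10.7 and -10.2. Arrays were quantile normalized, and outlier spots, or flagged spots with a local background above 100, were left out. The spots of each probe were averaged. A probe was kept if every array of 1 group or more read it well above background, and the brightest such probe represented the gene. Genes were tested with limma 3.58.1 in R 4.3.3 (lmFit, eBayes, Benjamini-Hochberg, threshold 0.05), and single values with an exact permutation test. Tables were made in Python 3.11.15. The tests were checked on simulated data.

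Genes given in full were the immunoproteasome set, PSMB5, PSMB6 and PSMB7, the 5 largest rises and 5 largest falls among the other members, and, from the pathway lists, the 3 largest changes in each direction. Marker genes, NFE2L2, ADRM1, SEM1 and PSMC3IP are named outside this rule. The members and gene lists were chosen with earlier results of these data known. Probe coordinates and gene names are those of the scanner files (hg19). The array named SEM1 as SHFM1, ECPAS as KIAA0368, UFD1 as UFD1L and PITHD1 as C1orf128. Alternatives changed the background fit, the signal used, the normalization, the filter on dim probes, the treatment of flagged spots, the choice of probe, the test, its threshold or the pairing, or left out 1 array. Of the listed genes, 1 of the MHC class I list and 1 of the leukocyte list are not reported here. The mouse arrays were not analysed here.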

Additional observations from a re-analysis of the deposited data

How the results depend on the processing

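The 5 genes of the immunoproteasome set were called higher under all 16 alternative settings of limma, and 4 of them by the methods' t-test, which the study names for its statistics in general and not for the arrays. Of the other proteasome genes, 6 to 9 were called higher and 25 to 30 lower under the same settings. Called genes that lost significance under any of them were PSMB4, PSMC2, PSMD7, PSMD12, PSMD13, PSME3, PSME4 and PSMG2, and no called proteasome gene changed sign under them. By the methods' t-test 4372 genes were higher and 4764 lower, and 3 and 23 of the other proteasome genes. With a change of at least 2-fold required, 1950 and 1971 genes passed, 1 and 4 of the other proteasome genes, and PAK1, at -0.75, did not pass. The median of the immunoproteasome set was 1.62 under cyclic loess. That of the other proteasome genes was -0.40 under cyclic loess, -0.45 for the processed signal scaled to the 75th percentile, and -0.42 with the mean over the probes of a gene. The difference of both means was 1.86 with normexp fitted on all spots. Genes that did not pass and changed sign were PSMA1 (-0.049 under median centring, -0.040 to 0.049 with 1 array left out), PSMD5 (-0.040 under median centring, -0.13 with the mean over probes) and POMP (-0.12 to 0.34 with 1 array left out). Median centring moved the median of all genes to 0.14 and the processed signal to 0.12, from 0.020. Genes that gained a call included PSMA1 (0.51, adjusted p = 0.001) with the mean over probes and PSMB11 (0.31, adjusted p = 0.0186) under median centring. The cause of these changes was not tested.

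Leaving out 1 array gave 5765 to 6390 higher and 6046 to 6562 lower genes. Without control replicate 1, PSME3 had an adjusted p of 0.0593 and PSMA3 passed at 0.0235. Without control replicate 2, PSMC2 had 0.0669 and PSMD13 had 0.0519. Without PAK1 shRNA replicate 1, PSMC2 had 0.0762, PSMD13 had 0.0547 and PSME3 had 0.0854. Without PAK1 shRNA replicate 2, PSMB4 had 0.0534, PSME3 had 0.0616, PSMG2 had 0.0608 and PSMA2 passed at 0.0439. Leaving out the spots of flagged background, a setting added after seeing the data, gave PSMB10 1.37 and changed no call among the proteasome genes.

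The labels number the replicates and name no pairs. Replicate 1 minus replicate 2 correlated between the groups at 0.01 across 21990 genes. With 1 such difference a group, this cannot decide whether the replicates were processed as pairs. With the replicate block 6982 genes were higher and 7076 lower, and of the other proteasome genes 7 were higher and 30 lower, with PSMA2 passing (adjusted p = 0.0279) and PSME4 not (0.0585).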
